A study of Mus musculus with 137 samples.

Results

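Dux, listed in the count table as Duxf3, and 9 genes of the mouse 2-cell stage that are linked to it and to the endogenous retrovirus MERVL were followed here: Zfp352, Tcstv1, Tcstv3, AF067061, BB287469, Tmem92, Arg2, Spz1 and Sp110. The 10 genes were named by symbol and found by summing the 25 transcript entries that carry those symbols, out of 36176 genes in the table. They were measured in single 2-cell embryos of the strain B6129F1 by SmartSeq2, an RNA-sequencing method that copies polyadenylated RNA from very small samples. Zygotes were taken at 5 hours after fertilization and grown in KSOM medium without an oil layer, and from 6 hours the medium held 0.1% DMSO, the solvent, or 10 µM SR1848, a compound that inhibits the orphan nuclear receptor NR5A2. By their labels 29 embryos had DMSO alone and 41 had SR1848 alone. A further 67 were labelled as receiving SR1848 together with NR5A2 mRNA at 500 ng/µl, and are called the NR5A2 mRNA embryos below. The embryos came from 2 experiments, the first with 19, 17 and 27 and the second with 10, 24 and 40 embryos of the 3 groups in that order. The labels hold no embryo that received another mRNA, so receiving mRNA and receiving NR5A2 cannot be told apart. Nor do they say which embryos shared parents, so a p-value measures the spread between these embryos.

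DUX is a transcription factor with a pair of homeodomains, made for a short time when the embryo's own genome is first transcribed. In embryonic stem cells it binds the long terminal repeats of MERVL and switches on those repeats together with a set of genes of the 2-cell stage, many of them transcribed from or near MERVL repeats. The members other than Duxf3 are known as genes of that set or as transcripts that rise at the same stage. MERVL itself was not analysed here.

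Some libraries carried levels of Nr5a2 and of the reporter GFP that go against their labels. Among the libraries labelled DMSO in experiment 2, numbers 1 to 8 held GFP at a median of 2491 CPM, from 47.4 to 7075 (CPM are counts scaled to a common library total). Their Nr5a2 had a median of 2260.2 CPM, from 88.3 to 5395. The libraries labelled NR5A2 mRNA with the same numbers held GFP at no more than 0.452 CPM and Nr5a2 at a median of 108 CPM. These are the 16 libraries left out below where a value is given without the 16. The other 21 DMSO embryos had a median Nr5a2 of 104 CPM (3.34 to 189), near that of NR5A2 mRNA libraries 1 to 8 of experiment 2. DMSO number 4 of experiment 2, at 88.3 CPM of Nr5a2, lay within that range. A further 16 libraries labelled NR5A2 mRNA, 9 in experiment 1 and 7 in experiment 2, held GFP at no more than 70.8 CPM and Nr5a2 at a median of 13.9 CPM. The 41 embryos labelled SR1848 had a median Nr5a2 of 13.2 CPM, and the 43 other embryos labelled NR5A2 mRNA one of 3490.4 CPM, with GFP at 1426 CPM or more. Values without the 32 leave out both sets, which were chosen after these levels were seen. Total counts ran from 100883 to 9317721 per library with a median of 4694340, and 7 libraries had low totals or few genes detected. Those 7 were kept in the ranges and medians below unless said otherwise. Because each library is 1 embryo and its values are relative to its own total, less of a gene's RNA and more of all other RNA cannot be told apart.

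All 10 members passed the filter on low counts. In SR1848 embryos, per transcript length, Tmem92 had the highest level, with a median of 284 TPM (counts per transcript length, scaled in the same way). Tcstv1 followed at a median of 148 TPM. Tcstv3 at 58.8, Arg2 at 55.3 and Sp110 at 53.5 TPM lay close together, and their embryos overlapped. Zfp352 had a median of 23.6 TPM and AF067061 one of 15.8 TPM. Spz1 at 3.02, Duxf3 at 2.64 and BB287469 at 2.41 TPM were the lowest, again with overlapping embryos. In DMSO embryos the order was headed by Sp110, at a median of 335 TPM, and Tmem92, at 313 TPM, and Duxf3 was last at 0.204 TPM.

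**Figure D1:**
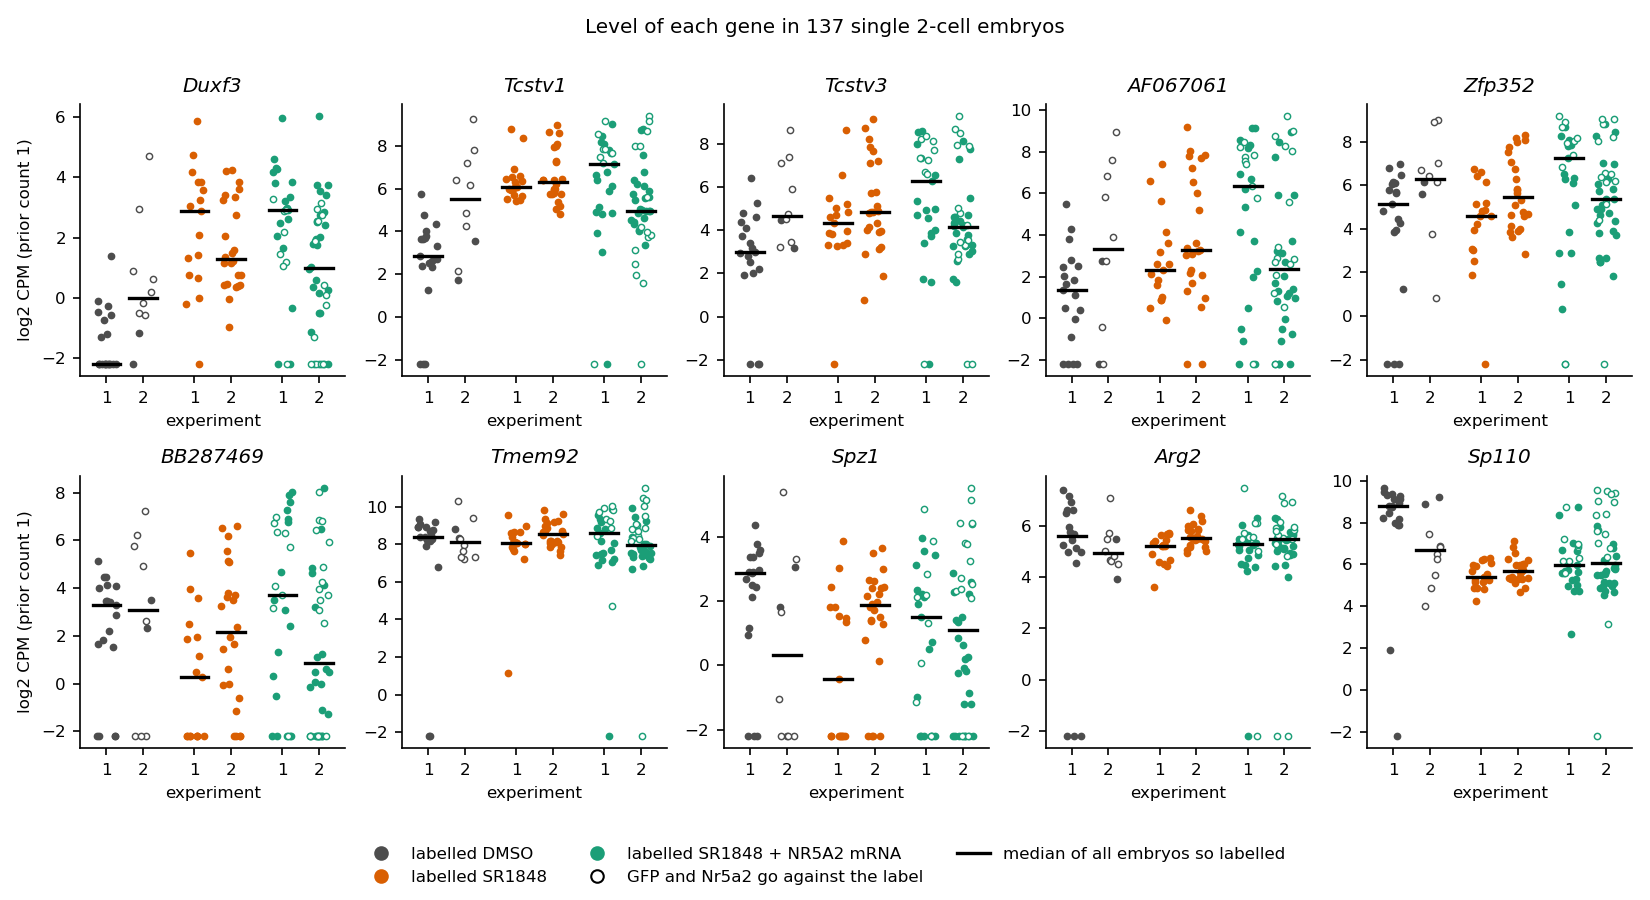
Level of each of the 10 members in every embryo, as log2 CPM with a prior count of 1, by labelled group. Each point is 1 embryo, open for the 32 libraries that go against their labels, with a column for each experiment and a bar at its median. Duxf3 and Tcstv1 lie higher in the embryos labelled SR1848 than in most labelled DMSO, and Sp110 lies lower.

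Between SR1848 and DMSO embryos as labelled, 2 of the 10 members rose, Duxf3 and Tcstv1, and 1 fell, Sp110. Over all 14532 genes tested with edgeR's quasi-likelihood test, 33.6% rose and 35.5% fell at an adjusted p under 0.05, so the share of members that moved lay below that of all genes. Without the 16 libraries, 4 members rose and 1 fell, beside 41.5% and 32.7% of all genes. The members that rose were then Duxf3, Tcstv1, Tcstv3 and AF067061. The median log2 fold change of the 10 members was -0.16 as labelled, beside -0.03 for all genes. Without the 16 it was 0.46, beside 0.35 for all genes.

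Between NR5A2 mRNA and SR1848 embryos as labelled, 3 members rose, Zfp352, BB287469 and Sp110, and none fell, beside 29.6% and 12.3% of all genes. The same 3 rose without the 16 libraries, beside 21.9% of all genes higher and 12.4% lower. Without the 32 libraries edgeR called 0 of the 10, beside 17.2% higher and 11.8% lower. 1 member, Sp110, had an unadjusted p under 0.05 there, and DESeq2 was not run on those libraries. Between NR5A2 mRNA and DMSO embryos as labelled, 4 members rose and 1 fell, beside 32.2% and 25.0% of all genes. Those that rose were Duxf3, Tcstv1, Tcstv3 and AF067061, and Sp110 fell. Without the 16, 6 rose and 1 fell, beside 44.0% and 29.9%, and without the 32, 5 rose and 3 fell, beside 44.0% and 32.6%. These 3 comparisons share embryos with each other, so their values are given side by side only.

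**Figure D2:**
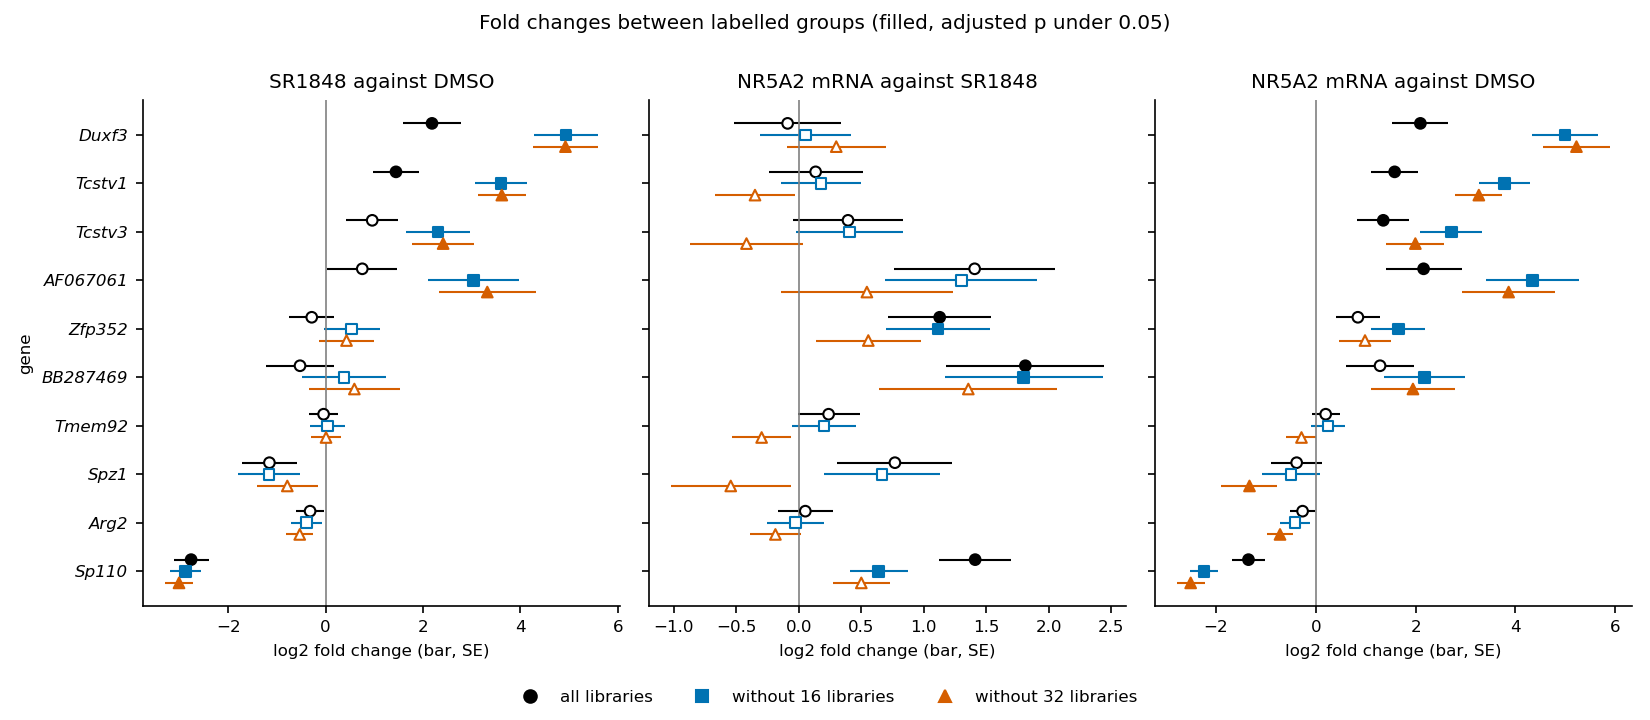
Log2 fold change of each member in the 3 comparisons, from edgeR, with bars of 1 standard error. The marks of each member stand for the fit to all libraries as labelled, the fit without the 16 and the fit without the 32 libraries that go against their labels. Duxf3 lies to the right and Sp110 to the left of 0 in both comparisons with DMSO in all of these fits.

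Duxf3, the activator itself, was at or near 0 in most DMSO embryos and was present in nearly all SR1848 embryos. In the 29 DMSO embryos it ran from 0 to 26.1 CPM with a median of 0.225 CPM, and 12 of them had no count. In the 41 SR1848 embryos it ran from 0 to 58.7 CPM with a median of 2.57 CPM, and 1 had no count. In the 67 NR5A2 mRNA embryos it ran from 0 to 64.9 CPM with a median of 3.87 CPM, and 11 had no count. The groups overlapped, but 40 of the 41 SR1848 embryos lay above the DMSO median. The highest DMSO value belonged to numbers 1 to 8 of experiment 2, and in the other 21 DMSO embryos the highest value was 2.39 CPM, and 22 of the 41 SR1848 embryos exceeded it. By edgeR, Duxf3 rose by a log2 fold change of 2.19 ± 0.59 (SE) with SR1848 against DMSO (adjusted p = 6.64e-04). Without the 16 libraries it rose by 4.94 ± 0.66 (adjusted p = 7.60e-11). When all libraries as labelled were scaled to the maternal transcripts it still rose, by 1.37. Low libraries were kept in that fit, with maternal shares down to 0.00227%, so their scaling rests on few counts. Between NR5A2 mRNA and SR1848 embryos the difference was -0.09 ± 0.43 as labelled (adjusted p = 0.890) and 0.30 ± 0.39 without the 32 (adjusted p = 0.627). Against DMSO, Duxf3 rose in NR5A2 mRNA embryos by 2.10 ± 0.56 (adjusted p = 0.00112), and by 5.22 ± 0.68 without the 32 (adjusted p = 3.33e-11). Reads of Duxf3 can also match Gm4981, which was 90.6% identical over most of the Duxf3 transcript. They can match Gm10807 (94.3% identical over 53.5% of it) and AW822073 (93.5% over 54.8%) as well. The count of each of these genes therefore depends on how the reads were divided.

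The 300 bases around the annotated start of Duxf3, from 250 before to 50 after it, are shown because this is the member that rose most with SR1848. The window lies at chr10:58233040-58233339 on the minus strand of GRCm38.p6, around the start annotated by RefSeq. The Duxf3 transcripts counted here, from GENCODE M21, begin outside it, at 58232675 and 58232013 on that strand. None of the motifs searched in the members' windows is in the window, so no letter is in capitals.
Duxf3: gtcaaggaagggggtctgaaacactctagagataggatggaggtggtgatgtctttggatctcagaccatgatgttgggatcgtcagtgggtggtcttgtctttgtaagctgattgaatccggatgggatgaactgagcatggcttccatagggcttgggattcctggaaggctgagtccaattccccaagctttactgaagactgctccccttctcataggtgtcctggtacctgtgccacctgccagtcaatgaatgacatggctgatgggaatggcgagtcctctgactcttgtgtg

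Tcstv1, Tcstv3 and AF067061 are copies of the 2-cell-stage variable group on chromosome 13, a family of transcripts known from the 2-cell embryo and from the rare 2-cell-like state of stem cells. Their transcripts were 92.9% (Tcstv1 and AF067061), 92.5% (Tcstv1 and Tcstv3) and 92.0% (Tcstv3 and AF067061) identical, and further copies such as Gm21818 and Gm20767 stood in the same table. The first 120 coding bases from GENCODE M21 on GRCm38, printed here with bases that differ from Tcstv1 in capitals, carried 1 difference in Tcstv3 and 4 in AF067061. A short read from such a stretch fits more than 1 copy, so the split of reads among these 3 genes is uncertain. Tcstv1 was read at chr13:119893975-119894094 on the minus strand, Tcstv3 at chr13:120317567-120317686 and AF067061 at chr13:120263802-120263921 on the plus strand.
Tcstv1: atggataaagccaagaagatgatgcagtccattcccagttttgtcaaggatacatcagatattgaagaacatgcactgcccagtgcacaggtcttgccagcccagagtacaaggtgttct
Tcstv3: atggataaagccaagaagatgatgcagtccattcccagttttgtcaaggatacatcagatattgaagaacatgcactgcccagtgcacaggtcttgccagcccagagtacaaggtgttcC
AF067061: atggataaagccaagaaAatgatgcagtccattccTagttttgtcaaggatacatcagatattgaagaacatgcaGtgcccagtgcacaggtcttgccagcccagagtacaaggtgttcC

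Tcstv1 ran from 0 to 610.0 CPM in DMSO embryos with a median of 12.1, from 27.9 to 495 CPM in SR1848 embryos with a median of 74.8, and from 0 to 661 CPM in NR5A2 mRNA embryos with a median of 48.4. All 41 SR1848 embryos lay above the DMSO median, and 31 of them lay above the highest of the 21 DMSO embryos without the 16, which was 53.5 CPM. Tcstv1 rose with SR1848 by 1.45 ± 0.48 as labelled (adjusted p = 0.00561) and by 3.60 ± 0.53 without the 16 (adjusted p = 1.67e-09). With scaling to the maternal transcripts the log2 fold change as labelled was 0.80 and no longer passed. Between NR5A2 mRNA and SR1848 embryos it differed by 0.13 ± 0.38 as labelled (adjusted p = 0.812) and by -0.35 ± 0.32 without the 32 (adjusted p = 0.454). Tcstv3 had a median of 10.8 CPM in DMSO (range 0 to 403), 26.0 CPM in SR1848 (0 to 570.1) and 21.6 CPM in NR5A2 mRNA embryos (0 to 618), and the groups overlapped over most of their ranges. Its difference between SR1848 and DMSO did not pass as labelled, at 0.96 ± 0.53 (adjusted p = 0.0983), and passed without the 16, at 2.31 ± 0.65 (adjusted p = 9.95e-04). AF067061 had medians of 3.38, 8.00 and 8.48 CPM in the same order, with highest values of 495, 576 and 835 CPM and lowest values of 0. It rose with SR1848 without the 16, by 3.04 ± 0.93 (adjusted p = 0.00236), and did not pass as labelled, at 0.75 ± 0.72 (adjusted p = 0.346). With scaling to the maternal transcripts the signs of Tcstv3 and AF067061 as labelled turned, to -0.18 and -0.02. Between NR5A2 mRNA and DMSO embryos as labelled, Tcstv1 rose by 1.58 ± 0.47 (adjusted p = 0.00300), Tcstv3 by 1.35 ± 0.52 (adjusted p = 0.0207) and AF067061 by 2.16 ± 0.76 (adjusted p = 0.0120).

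Zfp352 encodes a zinc finger protein known from the 2-cell stage, and BB287469 is a copy of the translation initiation factor gene Eif1a. Both rose between NR5A2 mRNA and SR1848 embryos as labelled, and neither passed without the 32 libraries. Their start windows are shown because they are the only ones among the members that hold the letters AAGGCCA, which fit the core that NR5A2 is known to bind. Windows were available for 6 of the 10 members, 7 windows in all with a pair for Sp110, and 6.204% of all 32851 RefSeq windows of the same length hold AAGGCCA on either strand. AAGGTCA, held by 4.72% of all windows, and the longer forms of these cores with TC before them, held by 0.423% (AAGGTCA) and 0.591% (AAGGCCA), were in no member window. Nor was the DUX motif, taken here as TGATT and AATCA with 1 base between them and held by 0.0335% of all windows. After the windows were read, TAATCC, the core bound by homeodomains of the OTX and CRX type, was also searched on both strands. It was in 5 of the 7 member windows, the pair of Sp110 among them, and in 7.06% of all windows. As these letters were chosen after the member windows were read, the 2 shares are not a test. The window of Zfp352 held 9 copies in a repeated unit, and no other of the 32851 windows held as many. AF067061 held 3 copies, BB287469 held 2, the windows of Sp110 held 1 and 2, and those of Duxf3 and Spz1 held none. A match of letters does not show that a factor binds. In the sequences below from GRCm38.p6, at chr4:90218570-90218869 and chr12:87816327-87816626 on the plus strand, capitals mark AAGGCCA and TAATCC or their reverse complements.
Zfp352: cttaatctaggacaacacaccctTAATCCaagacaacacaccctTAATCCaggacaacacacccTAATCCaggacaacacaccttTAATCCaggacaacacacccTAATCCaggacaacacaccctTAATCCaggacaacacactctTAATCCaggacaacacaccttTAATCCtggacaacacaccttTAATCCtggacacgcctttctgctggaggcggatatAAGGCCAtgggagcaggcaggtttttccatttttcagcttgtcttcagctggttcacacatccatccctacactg
BB287469: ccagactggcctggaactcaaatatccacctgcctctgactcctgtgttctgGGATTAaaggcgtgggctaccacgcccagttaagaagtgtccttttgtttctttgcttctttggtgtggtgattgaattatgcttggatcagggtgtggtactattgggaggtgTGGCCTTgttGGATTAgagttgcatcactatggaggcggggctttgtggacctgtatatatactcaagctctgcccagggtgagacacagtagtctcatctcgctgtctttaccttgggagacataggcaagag

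Zfp352 ran from 0 to 511 CPM in DMSO embryos with a median of 51.3, from 0 to 320.2 CPM in SR1848 embryos with a median of 28.6, and from 0 to 570.1 CPM in NR5A2 mRNA embryos with a median of 71.2. The ranges overlapped throughout, and 46 of the 67 NR5A2 mRNA embryos lay above the SR1848 median. It rose from SR1848 to NR5A2 mRNA embryos by 1.13 ± 0.41 as labelled (adjusted p = 0.0192) and by 1.11 ± 0.41 without the 16 (adjusted p = 0.0274). Without the 32 the difference was 0.56 ± 0.42 (adjusted p = 0.348) and the NR5A2 mRNA median was 34.1 CPM. The 16 further libraries with little GFP and Nr5a2 had a Zfp352 median of 276 CPM, from 0 to 570.1 CPM. BB287469 had medians of 9.53 CPM in DMSO (range 0 to 151), 2.54 CPM in SR1848 (0 to 95.8) and 8.23 CPM in NR5A2 mRNA embryos (0 to 289.5), and 12 SR1848 and 18 NR5A2 mRNA embryos had no count. It rose between the last 2 groups by 1.81 ± 0.63 as labelled (adjusted p = 0.0143) and by 1.80 ± 0.63 without the 16 (adjusted p = 0.0192). Without the 32 the difference was 1.36 ± 0.71 (adjusted p = 0.151) and the median was 1.17 CPM, and the 16 further libraries had a median of 69.8 CPM. The part that the low GFP and Nr5a2 of those libraries has in these differences was not tested. Between SR1848 and DMSO neither gene passed, with -0.28 ± 0.47 for Zfp352 (adjusted p = 0.594) and -0.52 ± 0.69 for BB287469 (adjusted p = 0.501). Both signs were positive without the 16, at 0.54 and 0.38. Zfp352 was 95.2% identical to the pseudogene Zfp353-ps over 72.5% of its transcript, and BB287469 was 99.8% identical to Gm4027, so the counts of BB287469 and Gm4027 are hard to tell apart.

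Tmem92, which encodes a membrane protein, and Arg2, the mitochondrial arginase, did not pass between any of the labelled groups. Tmem92 had medians of 325 CPM in DMSO (range 0 to 1270.4), 284 CPM in SR1848 (1.99 to 902) and 283 CPM in NR5A2 mRNA embryos (0 to 2003). Its log2 difference was -0.04 ± 0.31 between SR1848 and DMSO (adjusted p = 0.912) and 0.24 ± 0.25 between NR5A2 mRNA and SR1848 (adjusted p = 0.468). Arg2 had medians of 43.4 (0 to 168), 43.0 (12.0 to 95.8) and 41.5 CPM (0 to 174) in the same order, with differences of -0.32 ± 0.28 (adjusted p = 0.308) and 0.05 ± 0.22 (adjusted p = 0.877). Spz1, which encodes a leucine zipper protein known from the testis, had medians of 5.40 CPM in DMSO (0 to 41.5), 2.64 CPM in SR1848 (0 to 14.4) and 2.35 CPM in NR5A2 mRNA embryos (0 to 45.01). Its difference between SR1848 and DMSO was -1.15 ± 0.56 (adjusted p = 0.0586), on the edge of the threshold, and it passed at -1.46 with relative log expression scaling. Against DMSO and without the 32 libraries, Arg2 fell in NR5A2 mRNA embryos by 0.72 ± 0.27 (adjusted p = 0.0125) and Spz1 by 1.33 ± 0.56 (adjusted p = 0.0267). With scaling to the maternal transcripts Tmem92, Arg2 and Spz1 fell with SR1848 as labelled, by 1.67, 1.94 and 2.82, in a fit that moved the median of all genes from -0.03 to -1.42.

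Sp110, a nuclear body protein of the SP100 family, fell in both comparisons with DMSO, in which Duxf3 rose. It ran from 0 to 796 CPM in DMSO embryos with a median of 300.3, from 18.7 to 137.3 CPM in SR1848 embryos with a median of 49.7, and from 0 to 753 CPM in NR5A2 mRNA embryos with a median of 62.6. All 41 SR1848 embryos lay below the DMSO median, and 20 of the 29 DMSO embryos lay above the highest SR1848 embryo. Without the 16 libraries, 19 of the 21 DMSO embryos did, all but numbers 6 and 13 of experiment 1. Both were low libraries, and number 6 held the 0 of the DMSO range. The DMSO libraries 1 to 8 of experiment 2 had a median of 83.4 CPM (15.8 to 174), and the NR5A2 mRNA libraries 1 to 8 one of 585 CPM (324 to 753). Sp110 fell with SR1848 by 2.76 ± 0.36 on the log2 scale as labelled (adjusted p = 4.55e-11) and by 2.88 ± 0.31 without the 16 (adjusted p = 1.29e-14). From SR1848 to NR5A2 mRNA embryos it rose by 1.41 ± 0.29 as labelled (adjusted p = 2.87e-05) and by 0.64 ± 0.23 without the 16 (adjusted p = 0.0240), and the difference without the 32 was 0.50 ± 0.23 (adjusted p = 0.0934). Against DMSO, Sp110 fell in NR5A2 mRNA embryos by 1.35 ± 0.33 as labelled (adjusted p = 3.66e-04) and by 2.51 ± 0.28 without the 32 (adjusted p = 1.01e-13). The longest transcript of Sp110, the noncoding ENSMUST00000143363 of 2583 bases, was 97.6% identical to a transcript of Gm16026, so their reads can be split between them.

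The transcripts of Sp110 did not all follow the gene. The gene lies at chr1:85576899-85598817 on the minus strand of GRCm38, and 8 of its 9 annotated transcripts passed the filter. ENSMUST00000143363, a noncoding transcript, held 46.8% of the gene's counts, the coding ENSMUST00000093508 held 32.9%, and the short noncoding ENSMUST00000151690 held 4.95%. Between SR1848 and DMSO 7 of the 8 moved, and all 7 fell, beside 58.4% of all 30041 transcripts tested that moved in either direction. The share of all transcripts that fell was not computed. ENSMUST00000152399 did not pass, at -0.64 (adjusted p = 0.237). The coding transcript fell by 2.35 ± 0.41 (adjusted p = 4.11e-07), ENSMUST00000143363 by 3.89 ± 0.49 (adjusted p = 3.83e-11) and ENSMUST00000151690 by 5.04 ± 0.67 (adjusted p = 1.98e-10).

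From SR1848 to NR5A2 mRNA embryos as labelled, 3 of the 8 transcripts of Sp110 rose. In either direction 30.9% of all transcripts moved, and the share that rose was not computed. ENSMUST00000143363 rose by 2.71 ± 0.41 (adjusted p = 5.18e-08), ENSMUST00000151690 by 3.505 ± 0.56 (adjusted p = 2.80e-07) and ENSMUST00000128339 by 0.98 ± 0.32 (adjusted p = 0.0104). The coding ENSMUST00000093508 differed by 0.26 ± 0.32 (adjusted p = 0.584). Without the 32 libraries, 4 of the 8 moved, beside 19.0% of all transcripts. ENSMUST00000143363 and ENSMUST00000151690 rose, by 1.88 ± 0.37 (adjusted p = 4.20e-05) and 2.20 ± 0.51 (adjusted p = 4.60e-04). The coding ENSMUST00000093508 fell by 0.80 ± 0.24 (adjusted p = 0.0111), and ENSMUST00000131950, which retains an intron, fell by 2.49 ± 0.61 (adjusted p = 0.00107). Median levels of ENSMUST00000143363 were 130.2 CPM in DMSO as labelled, 7.24 CPM in SR1848 and 15.2 CPM in NR5A2 mRNA embryos without the 32. Those of the coding transcript were 130.4, 25.7 and 14.1 CPM, and its DMSO median without the 16 was 154.7 CPM. Reads shared by these transcripts were divided among them by kallisto, so the split rests on that estimate. Reads of ENSMUST00000143363 can also match Gm16026, and its rise carries that uncertainty.

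**Figure D3:**
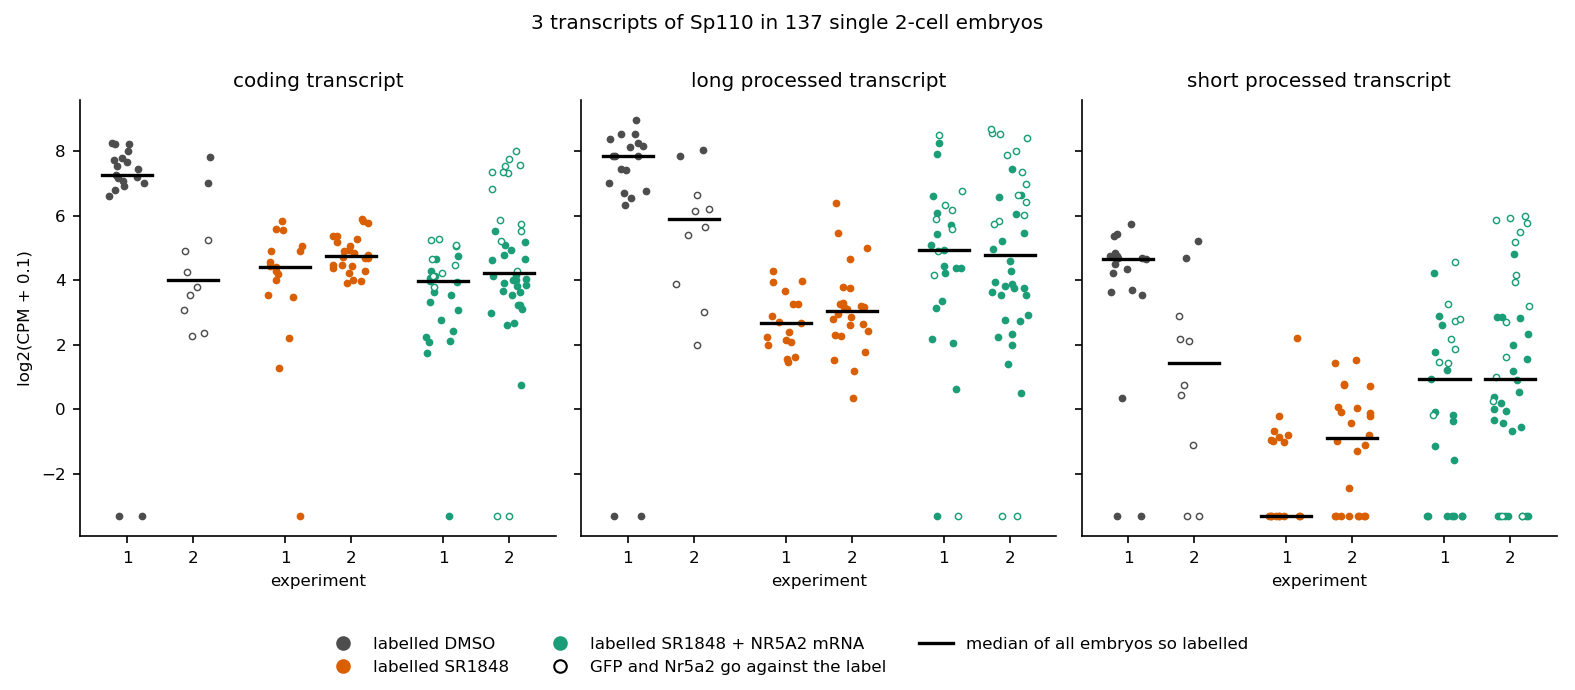
Levels of 3 Sp110 transcripts in every embryo as log2(CPM + 0.1), by labelled group and experiment: the coding ENSMUST00000093508, the long processed ENSMUST00000143363 and the short processed ENSMUST00000151690. Each point is 1 embryo, open for the 32 libraries that go against their labels, and each bar is a median. Both processed transcripts lie higher in the NR5A2 mRNA embryos than in the SR1848 embryos, and the coding one does not.

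The authors' deposited table compares NR5A2 mRNA with SR1848 embryos transcript by transcript, and 23 of the 25 member transcripts have an adjusted p there. By the authors' deposited table, an adjusted p under 0.05 was reached by 5 of these 23, beside 23.9% of all 61900 transcripts with one. It marks ENSMUST00000143363 of Sp110 as up with a log2 fold change of 1.85 (adjusted p = 3.16e-09) and the coding ENSMUST00000093508 as down with -0.55 (adjusted p = 0.00747), by the authors' deposited table. It also marks ENSMUST00000151690 of Sp110 (adjusted p = 1.18e-06), ENSMUST00000107129 of Zfp352 (adjusted p = 0.0206) and the transcript of BB287469 (adjusted p = 0.0218) as up. The log2 fold changes of those last transcripts in the authors' deposited table are shrunken to nearly 0 and are not given.

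The effect of SR1848 on 2 members differed between the experiments as labelled. For Duxf3 the log2 fold change in experiment 2 minus that in experiment 1 was -4.51 ± 1.01 (adjusted p = 2.42e-04), and for Tcstv1 it was -3.01 ± 0.85 (adjusted p = 0.00356), by an interaction term in edgeR. Of all genes, 31.3% differed between the experiments. In experiment 1 alone Duxf3 rose by 4.91 and Tcstv1 by 3.25, and in experiment 2 alone the values were 0.47 and 0.22 and did not pass. Numbers 1 to 8 of the 10 DMSO libraries of experiment 2 are among the 16. Without the 16, which leaves 2 DMSO embryos in experiment 2, edgeR called 0 members and 0.181% of all genes, and 0 members had an unadjusted p under 0.05; DESeq2 was not run for this term. For Sp110 the fall was found in each experiment, at -3.19 in the first and -1.57 in the second. For NR5A2 mRNA against SR1848, edgeR called 0 members as different between experiments, 4 at an unadjusted p under 0.05, beside 4.29% of all genes. In that comparison Zfp352 differed by 2.31 in experiment 1 and 0.24 in experiment 2, and BB287469 by 3.49 and 0.66, and both passed in the fit of the first and neither in that of the second.

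Across the 41 SR1848 embryos, most members other than Duxf3, Arg2 and Sp110 varied together. Log2 CPM values centred within each experiment were correlated for all 45 pairs of members, with 2-sided permutation p-values adjusted over the 45. In 21 pairs both Pearson's r and Spearman's rho passed at 0.05, and 0 of these held Duxf3, where 1 of its 9 pairs passed by rho and 0 by r. Zfp352 and Tcstv3 had r = 0.82 and rho = 0.77, and r = 0.75 without the 2 embryos farthest from the Zfp352 median. Zfp352 and Tmem92 had r = 0.78 and rho = 0.76 (r = 0.72 without the 2), and Zfp352 and BB287469 had r = 0.68 and rho = 0.70 (r = 0.73). The adjusted permutation p of each of these pairs was 5.6e-05 for r and 3.5e-05 for rho, from the smallest p that 100000 resamples can give, 1e-05. Tcstv1 and AF067061, which share reads, had r = 0.84 and rho = 0.76 (r = 0.82). Tcstv1 and Tmem92 had r = 0.05 and rho = 0.61, and r = 0.75 without the 2 embryos farthest from the Tcstv1 median. One of these was the low library, number 8 of experiment 1, with Tcstv1 at 8.79 and Tmem92 at 1.15 log2 CPM. The other, number 11 of experiment 2, had 8.95 and 9.33 log2 CPM, high in both genes. The 9 pairs with Duxf3 had rho between -0.02 and 0.37 with a median of 0.13, and the other 36 a median of 0.49. Depth and amplification are shared by all genes of a library, and their part in these correlations was not tested. The share of pairs that pass among all genes was not computed, so the 21 pairs are not read as a trait particular to the members.

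**Figure D4:**
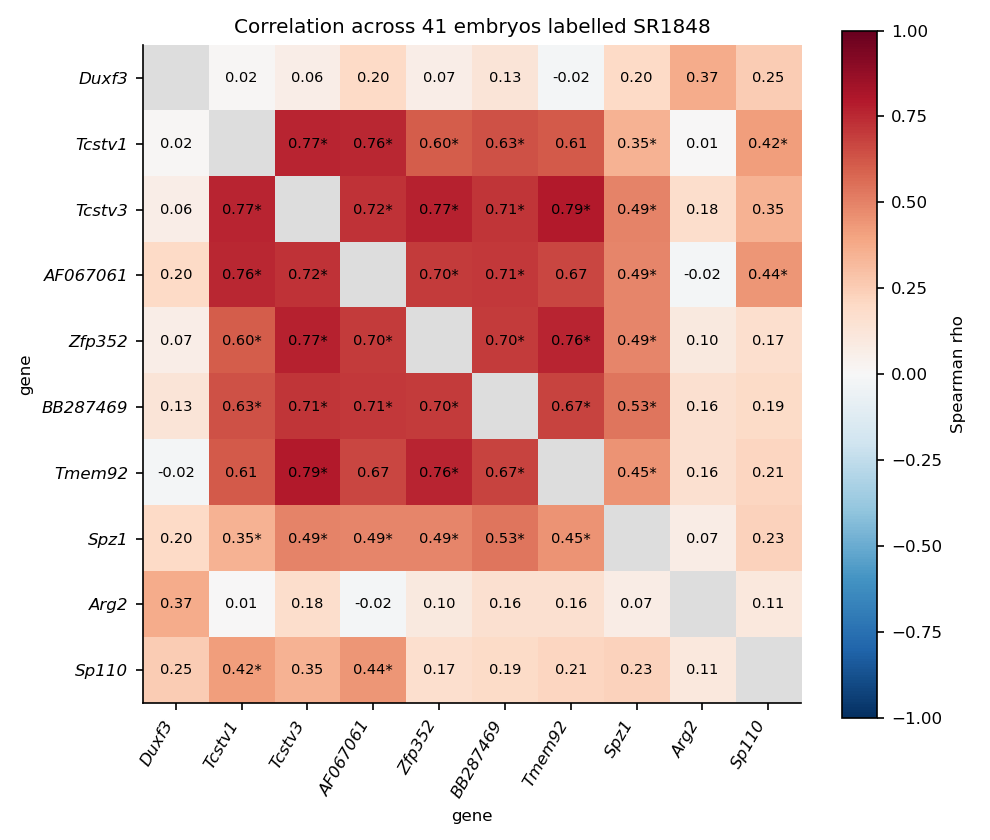
Spearman rho of log2 CPM, centred within experiment, for each of the 45 pairs of members across the 41 embryos labelled SR1848. Zfp352, Tcstv1, Tcstv3, Tmem92, AF067061 and BB287469 form a block of rho from 0.60 to 0.79, and the row of Duxf3 stays at 0.37 or below.

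The 2 experiments differed in how many pairs passed. In the 24 SR1848 embryos of experiment 2 alone 19 of 45 pairs passed both tests, and the 9 pairs with Duxf3 had rho between 0.05 and 0.33. In the 17 embryos of experiment 1 alone 1 pair passed, Spz1 and BB287469 (r = 0.70, rho = 0.80, and r = 0.51 without the 2 farthest), and 6 passed by r. The median Spearman coefficient over the 45 pairs was 0.29 in experiment 1 and 0.37 in experiment 2. Without the low library of experiment 1, number 8, 25 pairs of all 40 embryos passed, among them Duxf3 with Arg2 (r = 0.42, rho = 0.42, then r = 0.34). Among the 42 NR5A2 mRNA embryos without the 32 and the low libraries, 31 of 45 pairs passed. There, 3 pairs with Duxf3 were among them: with Zfp352 (r = 0.43, rho = 0.43, and r = 0.33 without the 2 farthest), with Tmem92 (r = 0.39, rho = 0.43, then 0.33) and with AF067061 (r = 0.49, rho = 0.47, then 0.39). Adjusted permutation p-values for rho were 0.00892, 0.00925 and 0.00340. Among 18 DMSO embryos without the 16 and the low libraries 7 pairs passed, 0 of them with Duxf3. Whether the relation of Duxf3 to the other members differs between the groups was not tested.

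**Figure D5:**
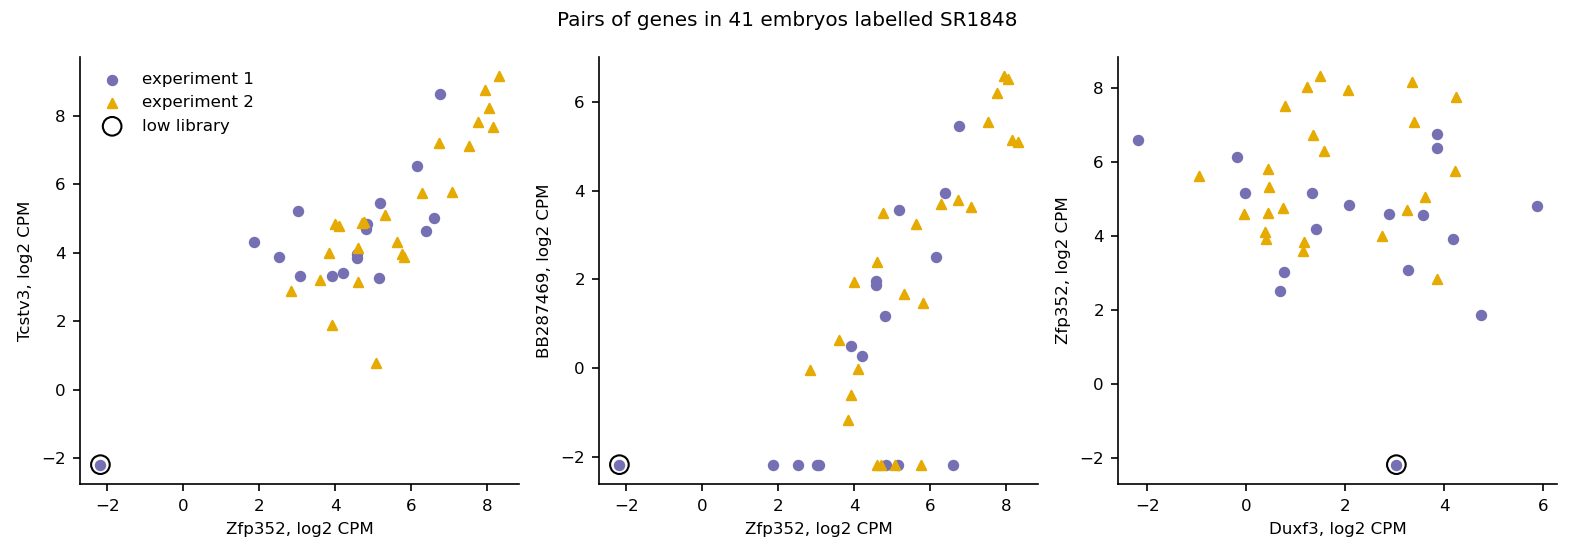
Log2 CPM, with a prior count of 1, of Tcstv3 and of BB287469 against Zfp352 and of Zfp352 against Duxf3 in the 41 embryos labelled SR1848. Each point is 1 embryo, with the shape giving the experiment and a ring around the low library. Tcstv3 and BB287469 climb with Zfp352, and Zfp352 shows no such slope with Duxf3 (rho = 0.07).

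Genes outside the members were ranked by Spearman's rho with Duxf3 and with Zfp352 over the same 41 embryos, as a description. Of 7116 genes compared, the nearest to Duxf3 were Emg1 (rho = 0.60), A430005L14Rik (0.56), Hbegf (0.56), Crot (0.56) and Wdfy1 (0.52), where the median of all was -0.01. Nearest to Zfp352 were its pseudogene Zfp353-ps (rho = 0.94), P4hb (0.90), Gm9044 (0.90), Gm9040 (0.90) and Nolc1 (0.89), with a median of 0.0037 over all.

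A list of 34 other transcripts known from the 2-cell stage gave other counts. With SR1848 against DMSO as labelled, 0 of the 33 tested rose, by edgeR, and 11 fell, beside 33.6% and 35.5% of all genes, with a median of -0.63. Trim43b fell by 6.21 and Ubtfl1 by 4.32. Without the 16, 11 rose and 9 fell, beside 41.5% and 32.7% of all genes, with a median of 0.70. The medians of all genes were -0.03 as labelled and 0.35 without the 16. From SR1848 to NR5A2 mRNA embryos 24 of the 33 rose and 0 fell as labelled, beside 29.6% and 12.3% of all genes, and 17 rose and 0 fell without the 32, beside 17.2% and 11.8%. Ubtfl1 rose by 2.84 as labelled and by 1.74 without the 32 (adjusted p = 5.90e-07), and Slfn4 by 3.28 and 2.41 (adjusted p = 5.89e-06). Their counts against DMSO in NR5A2 mRNA embryos were 13 higher and 6 lower, beside 32.2% and 25.0% of all genes as labelled. The summed share of these transcripts in each embryo ran from 0 to 0.957% in DMSO, 0.00653 to 0.454% in SR1848 and 0 to 1.14% in NR5A2 mRNA embryos.

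Of 11 factors known to activate Dux, 5 rose and 5 fell with SR1848, beside 33.6% and 35.5% of all genes tested. Dppa4, which with Dppa2 opens the Dux locus in stem cells, fell by 6.55 and the homeobox gene Obox6 by 5.40, while Duxf3 rose. From SR1848 to NR5A2 mRNA embryos 3 rose and 4 fell as labelled, beside 29.6% and 12.3% of all genes, and 1 rose and 5 fell without the 32, beside 17.2% and 11.8%. Obox6 rose by 3.59 and, without the 32, by 2.14 (adjusted p = 6.67e-04). Dppa4 rose by 3.25 as labelled and did not pass without the 32 (adjusted p = 0.9996). Of 28 tested factors known to repress Dux or MERVL, 6 rose and 11 fell with SR1848, with Hdac1 down by 3.24 and Sumo2, a gene for the SUMO modifier, down by 7.25. From SR1848 to NR5A2 mRNA embryos 6 rose and 6 fell as labelled, and 3 rose and 8 fell without the 32, where the histone methyltransferase gene Setdb1 fell by 1.61 (adjusted p = 1.58e-12) and Cbx3 rose by 1.26 (adjusted p = 3.01e-04). The same shares of all genes apply to the repressors, and nothing particular to either list is read from its counts.

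Stored maternal transcripts moved with the labelled groups as well. With SR1848 46 of 58 tested rose and 2 fell, beside the same 33.6% and 35.5% of all genes, with a median of 1.323, and their summed share had a median of 1.79% in DMSO (0.00595 to 4.19%), 4.49% in SR1848 (0.755 to 6.15%) and 3.40% in NR5A2 mRNA embryos (0.00227 to 6.41%). From SR1848 to NR5A2 mRNA embryos 0 rose and 25 fell by edgeR, beside 29.6% and 12.3% of all genes as labelled. The part of this shift in the members' relative levels was not tested beyond the fit scaled to these transcripts. There, 1 member rose and 6 fell with SR1848, beside 7.49% and 62.8% of all genes. In that fit 10.7% of all calls between SR1848 and DMSO were higher, against 48.6% as fitted here. Markers of other cells that could adhere to an embryo were also looked at. Of 12 cumulus and granulosa markers 6 passed the filter, Foxl2, Fshr, Inha, Inhba, Has2 and Ptx3 not among them. Their summed share was at most 0.0218% in DMSO, 0.0497% in SR1848 and 0.0181% in NR5A2 mRNA embryos, each in a low library. Without the low libraries the highest were 0.0185%, 0.0228% and 0.0126% in the same order. Of 8 spermatid markers 4 passed, Prm1, Tnp1, Tnp2 and Odf1 not among them, at no more than 0.00444% in any embryo. With SR1848 2 cumulus markers rose and 2 fell, and so did 2 and 2 spermatid markers, beside the same 33.6% and 35.5% of all genes. In each list 2 rose and 1 fell from SR1848 to NR5A2 mRNA embryos, beside 29.6% and 12.3% of all genes. Amhr2, the receptor gene for anti-Mullerian hormone, was the most abundant of these markers in DMSO embryos by its median, 53.9 CPM (highest 123), beside 0.21 CPM in SR1848 embryos. Amhr2 fell with SR1848 by 4.98 and rose from SR1848 to NR5A2 mRNA embryos by 2.85, and by 1.81 without the 32 (adjusted p = 0.00200). The spermatid marker Tssk6 fell by 4.02 and then rose by 2.36, and by 1.43 without the 32 (adjusted p = 0.0361). Ldhc, a testis lactate dehydrogenase gene, fell by 3.39 and then rose by 1.86, with a difference of 0.52 without the 32 (adjusted p = 0.410). The cumulus marker Col4a2, a collagen gene, rose with SR1848 by 2.04. Amhr2, Tssk6 and Ldhc moved as labelled in the same directions as Sp110. Medians of the spermatid markers Prm2 and Gapdhs went the other way from DMSO to SR1848, from 0.164 to 2.11 CPM and from 0.635 to 2.22 CPM. That of the cumulus marker Cyp19a1 did so too, from 0.480 to 3.15 CPM. The part of these markers in the members' results was not tested.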

How the data were processed

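Single-embryo SmartSeq2 libraries were primed with oligo-dT, per the labels' protocols. Reads were handled with bcl2fastq, Trim Galore 0.6.2, kallisto 0.46.1, R 3.5.1 and DESeq2 1.32.0, and the builds mm10 and hg19 are named, per the submitters' processing notes, without a role for hg19. The deposited values are kallisto's estimated counts per transcript (expected counts), of which 26.3% are not whole numbers. The deposited comparison table holds the authors' mean normalized signal, log2 fold changes and p-values.

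Of 119358 transcript entries, 116770 were paired with genes through GENCODE M21 and 892 through the deposited table. Another 1691 stayed unpaired, with 0.557% of counts, and 5 entries were for repeats, GFP and Nr5a2 sequences outside the annotation. Gene sums were rounded and tested with edgeR 4.0.16 (R 4.3.3) by the quasi-likelihood method, with TMM scaling, filterByExpr, terms for group and experiment, and Benjamini-Hochberg adjustment over all genes tested, at 0.05. Fold changes are log2, with SE taken from the F statistic. The fit was tested on simulated data. DESeq2 1.42.0, other scalings and smaller sets of libraries were alternatives. CPM use edgeR's scaled library sizes, and their precision follows the counts. Those of GFP, Nr5a2 and the single Sp110 transcripts use library totals without that scaling. Low libraries have a total under the median divided by 5 or genes detected under the median divided by 2. Correlations used log2 CPM with a prior count of 1 and 100000 permutations. All columns of the table were matched to a sample, and no columns were identical.

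The members, gene lists and comparisons were chosen with earlier results of these data known. Genes named besides the members are the 2 with the smallest p in each list and comparison, and the 5 most like Duxf3 and Zfp352 by rho, among genes averaging 3 log2 CPM or more. Promoter windows and motif shares come from RefSeq on GRCm38.p6, near copies from BLAST 2.17.0 against GENCODE M21 transcripts. The RefSeq starts need not be those of the transcripts counted.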

Additional observations from a re-analysis of the deposited data

Results flagged for a closer look

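The effect of SR1848 against DMSO on Duxf3 and on Tcstv1 differed between the 2 experiments by a test of the difference itself. The log2 fold change in experiment 2 minus that in experiment 1 was -4.51 for Duxf3 and -3.01 for Tcstv1. Numbers 1 to 8 of the 10 DMSO libraries of experiment 2 held GFP against their label, and all of these but number 4 held Nr5a2 against it. Without the 16 libraries the same terms were 0.17 ± 1.00 and 1.06 ± 1.37 (adjusted p = 1 for both by edgeR), with 2 DMSO embryos left in experiment 2.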

How the results depend on the processing

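The number of members called with SR1848 against DMSO, 3 as labelled, was 5 without the 16 libraries, 7 once the low ones were left out too, 5 without the 32, 5 in experiment 1 alone, 1 in experiment 2 alone and 7 with maternal scaling. The shares of all genes called in these fits were 69.0% as labelled, then 74.2%, 76.7%, 75.6%, 68.0%, 24.3% and 70.3%. For NR5A2 mRNA against SR1848, 3 as labelled, it was 0 without the 32, 1 in experiment 2 alone and 8 with maternal scaling, beside 41.9% of all genes as labelled, then 29.0%, 40.5% and 60.1%. For NR5A2 mRNA against DMSO, 5 as labelled, it was 8 without the 16 and the low libraries, 8 without the 32 and 0 in experiment 2 alone (0 at an unadjusted p under 0.05 by edgeR), beside 57.1% of all genes as labelled, then 77.1%, 76.7% and 0 of all 15292 genes. Members that differed between experiments in the effect of SR1848, 2 as labelled, were 4 without the low libraries and 0 without the 16, with or without the low libraries, and without the 32. The 2 as labelled were lower in experiment 2, and of the 4, 2 were higher and 2 lower. The shares of all genes were 31.3% as labelled and 41.8% without the low libraries. They were 0.181% without the 16, 0.00661% without the 16 and the low, and 0.221% without the 32. Correlated pairs, 21 in SR1848 embryos, were 7 in DMSO embryos and 1 in experiment 1 alone. The fits without the 32, the difference between experiments without the 16 and the low libraries, and the correlations in single experiments and in the other groups were chosen after seeing the data. With a replicate block for the number within experiment, 1 member was called for NR5A2 mRNA against SR1848 and 3 for NR5A2 mRNA against DMSO, beside 30.8% and 40.5% of all genes; same-numbered libraries did not deviate together (2 of 27, 8 of 41 and 2 of 29 pairs above a correlation of 0.1), and 2 of 27, 3 of 41 and 0 of 29 libraries were most like their own number.

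Sp110 kept its direction in each alternative run for all 3 comparisons, and so did Duxf3 in both comparisons with DMSO. Signs that turned are given as log2 fold changes, and the cause was not tested. SR1848 against DMSO: Zfp352 0.54 without the 16, 0.30 without the 16 and the low and 0.43 without the 32, BB287469 0.38, 0.15 and 0.59 in the same order, Tmem92 0.041 without the 16, 0.011 without the 32, 0.072 in experiment 2 and 0.041 with the block. In experiment 2 alone Arg2 was 0.29 and AF067061 -0.13, and with maternal scaling Tcstv3 was -0.18 and AF067061 -0.019. NR5A2 mRNA against SR1848: Duxf3 0.056 without the 16, 0.097 without the 16 and the low, 0.30 without the 32, 0.35 with maternal scaling and 0.038 with the block, Tcstv1 -0.35 without the 32, -0.40 in experiment 2 and -0.40 with the block, Tcstv3 -0.42 without the 32 and -0.42 in experiment 2. Tmem92 was -0.30 without the 32 and -0.078 with the block, Arg2 -0.028 without the 16, -0.19 without the 32 and -0.11 in experiment 2, and Spz1 -0.54 without the 32. NR5A2 mRNA against DMSO in experiment 2 alone: Zfp352 -0.44, Tcstv1 -0.18, Tcstv3 -0.21, Arg2 0.18 and BB287469 -0.13. Tmem92 there was -0.29 without the 32, -0.055 with relative log expression scaling, -0.58 with maternal scaling, -0.037 with the block and -0.055 with DESeq2. Maternal scaling also moved the share of calls that were higher from 70.6% to 94.0% for NR5A2 mRNA against SR1848 and from 56.3% to 17.4% against DMSO, which relative log expression scaling put at 44.0%. Zero counts, 12 of 29 for Duxf3 in DMSO embryos, limit folds of the lowest members.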
